A study of Mus musculus with 20 samples.

Results

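The glycolysis and hypoxia response genes are 32 genes that were chosen by name, from glucose uptake and the steps from glucose to lactate to genes known to respond to low oxygen. Each of the 32 names was found among the 54532 genes of both count tables, and all 32 genes passed the filter on low counts in every comparison. A second row with the name Aldoa held 0 to 32 counts a library, at most 0.515% of the Aldoa counts, and was left out of the values.

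The genes were followed in a mouse model of colorectal liver metastasis (CRLM). Mc38 cells, a colon adenocarcinoma line derived from C57BL/6 mice, reached the liver of wild-type C57BL/6 mice through the spleen and portal vein. Normal liver of mice given saline (con, day 0, 2 libraries) was the reference, and 1 library came from tumor-free liver lying away from the metastases at 12 days post injection (L-con). Metastases had a low tumor content at day 9 (Lt, 2 libraries), a medium content at day 9 (Mt3, 2) or day 11 (Mt2 and Mt1, 2 each) and a high content at day 12 (Ht, 3 libraries). Cells taken from Mt2 metastases at day 11 with F4/80 or CD11b microbeads gave 3 libraries each (F4/80+TAM and CD11b+TAM). The mice were 6 to 8 weeks old and female by the study's methods, while the tissue labels give male. Lt and Mt3 share a day, and the medium groups span days 9 and 11, but con, Lt, Mt as a whole and Ht differ in both content and day, which cannot be told apart in the comparisons made here. By the study's methods, the tissue groups other than L-con came from 2 livers each. For the sorted cells no source used here ties a library to a mouse, so that p-values there measure only the spread between these libraries.

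Glycolysis splits glucose into pyruvate in the cytosol, and lactate dehydrogenase turns pyruvate into lactate, which leaves the cell through a monocarboxylate transporter. Several steps have more than a single enzyme gene, and hepatocytes use forms of their own, such as the transporter GLUT2, liver pyruvate kinase and liver glycogen synthase, where most other cells use GLUT1, the muscle form of pyruvate kinase and the muscle form of glycogen synthase. When oxygen is short, prolyl hydroxylases no longer mark the factor HIF1A for breakdown, and HIF1A switches on many glycolysis genes together with genes of pH control, mitophagy and collagen maturation.

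The 14 tissue libraries held 16032085 to 18246623 counts and the 6 libraries of sorted cells 17785496 to 20548370. Levels are CPM, counts relative to the library total, after TMM scaling, which sets libraries to the same level for most genes. The tissue changed in its makeup along the series. The 13 hepatocyte markers summed to 217199 and 187604 CPM in con and to 4332 and 6191 CPM in Ht, and all 13 fell from con to Ht. The summed fibroblast and stellate cell markers lay at 304 to 423 CPM in con and 6472 to 7307 in Ht, the proliferation markers at 14.7 to 25.2 and 1372 to 1393, and the macrophage markers at 802 to 1126 and 2352 to 2427. Replicates of the medium groups were unlike: hepatocyte markers summed to 115264 and 31508 CPM in the libraries of Mt2 and to 107984 and 29246 in those of Mt1. In bulk tissue, fewer cells of a type and less RNA per cell cannot be told apart, and what part this makeup had in the differences below was not tested. The scaling matters: with total counts in place of TMM, the median log2 fold change of all genes moved up by 0.29 from con to Lt, 0.64 from con to Mt, 1.18 from con to Ht, 0.89 from Lt to Ht and 0.55 from Mt to Ht. Changes are given here relative to TMM. The Ht libraries numbered 1 and 3 were summed, since the study's methods describe them as made identical, which leaves 2 Ht samples, although their counts differed as much as those of Ht 1 and Ht 2 (chi-square per degree of freedom 30.3 against 29.1), and those of Ht 2 and Ht 3 differed less (13.2).

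HIF1A binds DNA at a short core motif, and its letters were looked for in the promoters. They are shown for those genes with a match that rose most. RefSeq promoter windows (GRCm38.p6, 250 bases before to 50 after the start site, 300 in all) were found for 30 of the 32 genes; Slc2a3 and Ndrg1 had none in the table. The letters ACGTG, read on either strand so that CACGT counts too and CACGTG counts with both overlapping, occurred in windows of 21 of the 30 genes (70.0%) and of 5886 of all 27025 genes (21.8%). By response from con to Ht, they occurred in 7 of 10 genes that rose (70.0%), in 4 of 5 that fell (80.0%) and in 10 of 15 that were not called (66.7%). Below are the parts of the windows around the motif for the 6 genes with the motif and the largest rise from con to Ht, each written 5′ to 3′ on the gene's own strand, with the motif in capitals.
Slc16a3, chr11:120948967-120949082, plus strand: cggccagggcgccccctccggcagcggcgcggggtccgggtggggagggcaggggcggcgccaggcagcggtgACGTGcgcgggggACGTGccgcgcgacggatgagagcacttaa
Pkm, chr9:59657222-59657251, plus strand: cccgcattctagtCACGTccgcggactcct
Car9, chr4:43506995-43507024, plus strand: cctatttccgatgCACGTacagcccgtcca
Hk2, chr6:82774425-82774554, minus strand: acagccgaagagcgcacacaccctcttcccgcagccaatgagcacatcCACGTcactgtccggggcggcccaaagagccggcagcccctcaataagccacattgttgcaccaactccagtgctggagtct
Hk1, chr10:62340398-62340427, minus strand: ccgcgcgctccttACGTGgggaACGTGcag
Hilpda, chr6:29272570-29272599, plus strand: ggatggccagcggACGTGccccagggcgag
In Slc16a3 the motif stood at 27 and 14 bases before the start site, on the same strand both times. It began 18 bases before the start in Car9, 43 before in Hilpda and 52 before in Hk2, and 8 bases after it in Pkm. Hk1 held it 7 and 16 bases after the start. The windows of Hk2 and Pkm each held 1 more match farther upstream, outside the part shown. Pfkfb4 rose by 3.50 from con to Ht, more than Hk2, Hk1 and Hilpda, but its window held no match and is not shown. Hk1, Pkm and Hilpda have a second start site in the table, and the window of that one held no match. A match of these letters is a description of the sequence and does not show that a factor binds there.

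The first question was how these genes differed between normal liver and metastases of growing content. A gene was called when its adjusted p (edgeR quasi-likelihood F test, Benjamini-Hochberg over all genes) was at most 0.05 and its log2 fold change at least 1 in size. From con to Lt 9 of the 32 genes rose and 0 fell, with 12.4% of all genes called higher and 0.256% lower. DESeq2 likewise called 0 lower there, and 13 of the 32 had an unadjusted p under 0.05 in edgeR. From con to Mt, the mean of Mt3, Mt2 and Mt1, 11 rose and 2 fell, against 20.2% and 10.3% of all genes. From con to Ht 11 rose and 5 fell, against 25.8% and 24.1%. These comparisons share the con libraries. Without overlap of the libraries, 16 genes were higher and 7 lower in Lt than in con (37.2% and 26.8% of all genes), 12 and 5 in Mt (31.6% and 22%) and 16 and 8 in Ht (45.6% and 40.1%). With total counts in place of TMM the split was 13 higher and 0 lower from con to Mt (32.3% and 3.35% of all genes with that scaling) and 21 higher and 1 lower from con to Ht (51.3% and 13.1%). The 10 members called only then from con to Ht were Slc2a1, Gpi1, Pfkl, Aldoa, Pgam1, Eno1, Hif1a, Egln3, Ddit4 and P4ha2, with log2 fold changes of 1.03 (Egln3) to 2.15 (Ddit4), of which Pfkl, Pgam1, Eno1 and Egln3 were below 0 with TMM. The genes that rose with TMM made up 28.1%, 34.4% and 34.4% of the 32, and the median log2 fold change of the 32 genes was 0.26, 0.20 and 0.27, beside 0.10, 0.08 and 0.09 for all genes. The genes that rose were 1 of the glucose transporters, the hexokinases Hk1 and Hk2, Pfkp, Pfkfb4, Pkm, Slc16a3, Hilpda, P4ha1, and from con to Mt and Ht also Car9 and Gys1, while the 5 that fell from con to Ht were Bnip3, Pdk1, Higd1a, Ldha and Pgk1.

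**Figure D1:**
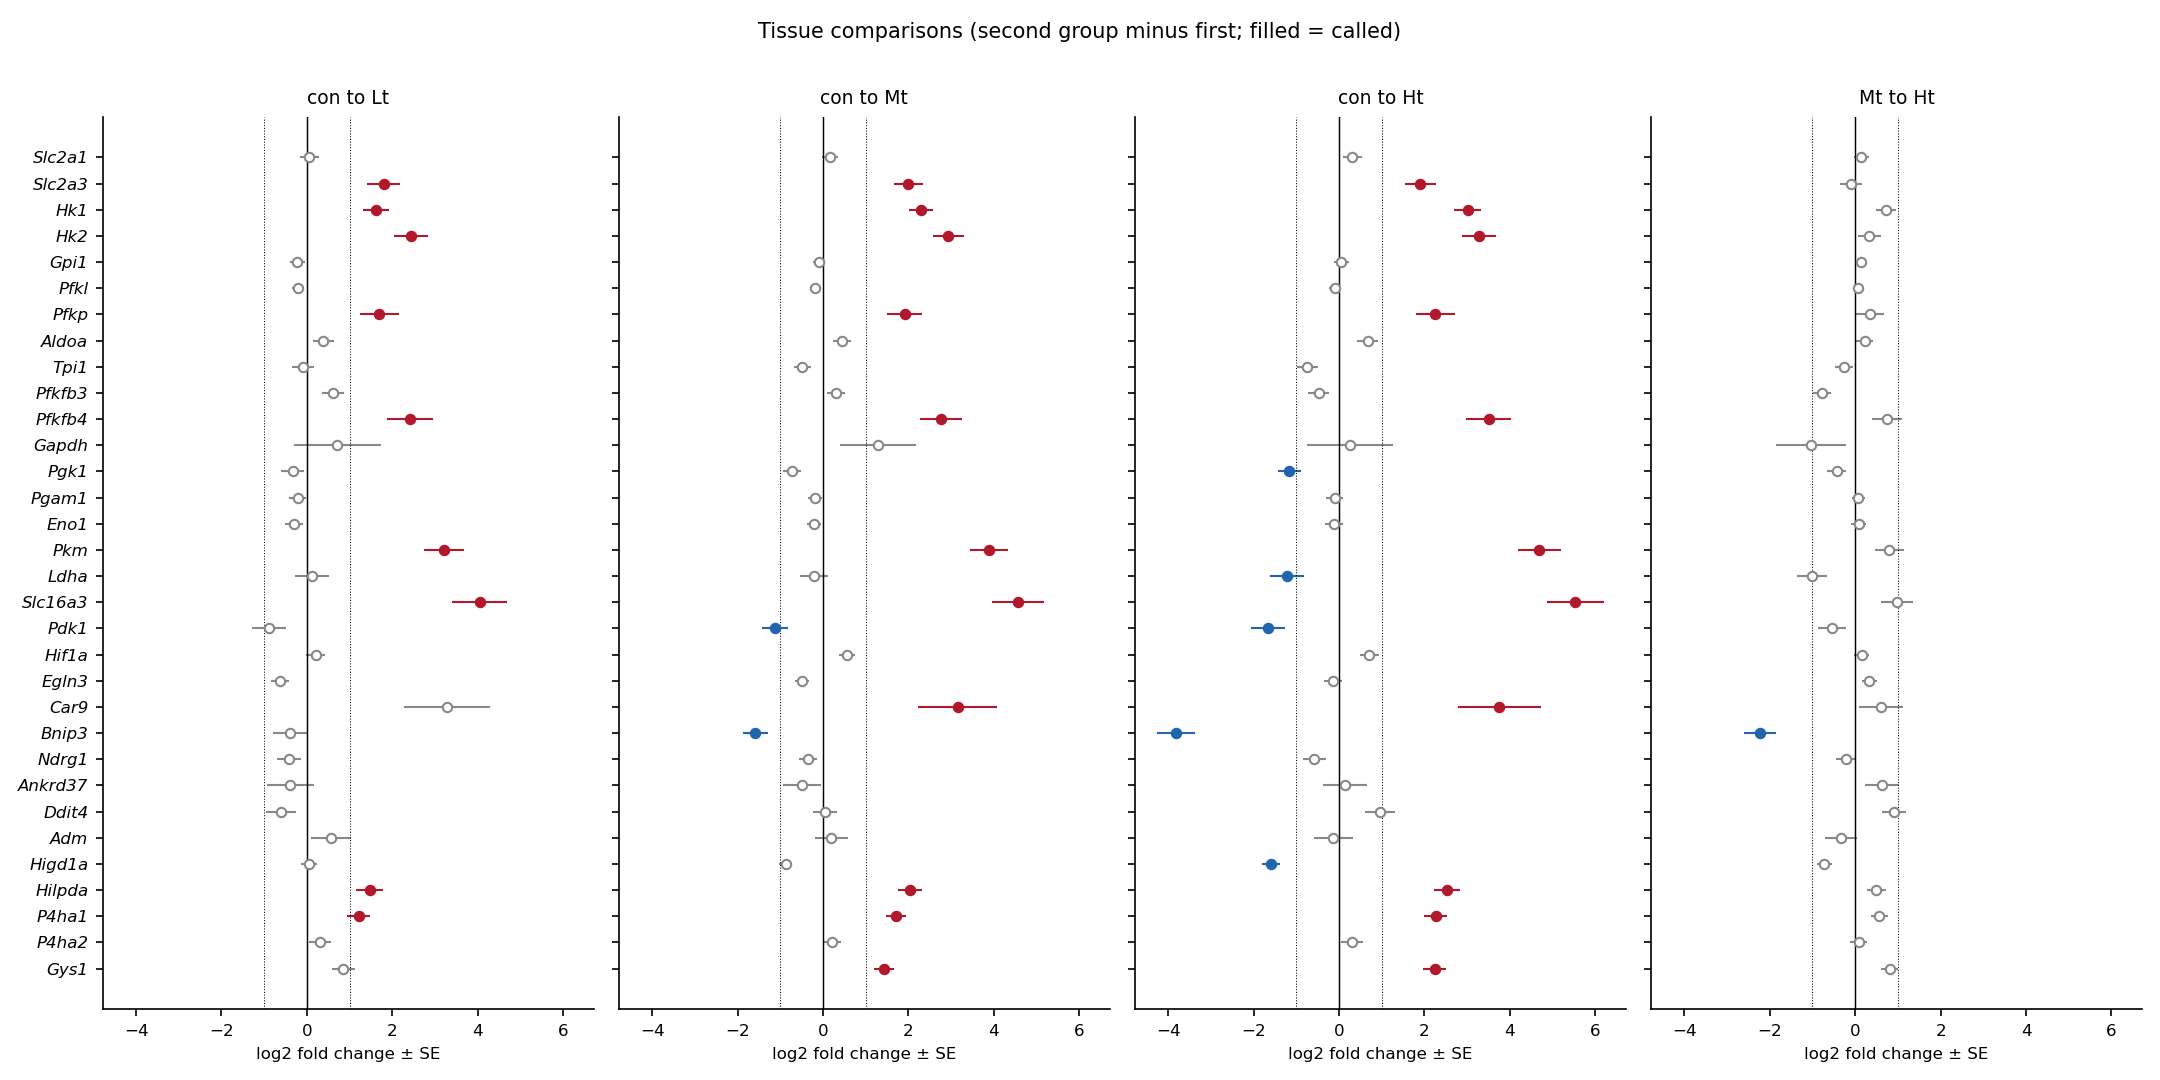
Log2 fold change (x axis, ± SE) of each of the 32 genes (y axis, ordered by role) from con to Lt, con to Mt, con to Ht and Mt to Ht; filled points are called (red higher, blue lower), open points are not, and dotted lines mark a log2 fold change of 1 in either direction. Slc16a3 and Pkm lie farthest to the right from con to Ht (5.54 and 4.69) and Bnip3 farthest to the left (-3.82), and from Mt to Ht only Bnip3 is filled.

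Glucose enters through the GLUT transporters. Slc2a1, the GLUT1 gene of most growing cells, lay at 27.4 and 18.8 CPM in con, 21.4 and 26.4 in Lt, 21.5 to 29.2 in the 6 Mt libraries and 29.5 and 28.5 in Ht. Its groups stood close together, and it was not called in any comparison of the tissue. Slc2a3, the high-affinity GLUT3 gene of neurons and leukocytes, lay at 1.01 and 0.517 CPM in con, 2.69 and 2.60 in Lt, 2.38 to 4.15 in Mt and 2.68 and 3.11 in Ht. All metastasis libraries lay above both con libraries, with a log2 fold change of 1.79 ± 0.38 (SE, adjusted p = 0.0134) to Lt and 1.90 ± 0.37 (adjusted p = 0.00177) to Ht. Without con 2 or without Lt 2 the call to Lt was lost (highest adjusted p 0.101).

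Of the 7 genes from hexokinase to triose phosphate isomerase, 3 rose from con to Ht and 4 were not called, where 25.8% of all genes were called higher and 24.1% lower. Hexokinases trap glucose in the cell as glucose 6-phosphate. Hk1 (chr10:62268855-62379908, minus strand), the form of most tissues, lay at 8.97 and 6.04 CPM in con, 18.6 and 27.4 in Lt, then 26.6 and 24.3 in Mt3, 32.2 and 55.0 in Mt2, then 40.5 and 52.2 in Mt1 and 59.5 and 63.1 in Ht. Hk2 (chr6:82725025-82774454, minus strand), the form of muscle and of many tumors, lay at 2.65 and 2.07 CPM in con, 8.06 and 17.5 in Lt, 14.2 to 23.9 in Mt and 24.8 and 21.4 in Ht. For both genes no metastasis library overlapped con. Hk1 rose by 1.62 ± 0.31 to Lt (adjusted p = 0.0096) and by 3.01 ± 0.32 to Ht (adjusted p = 1.39e-04), an 8.07-fold difference. Hk2 rose by 2.44 ± 0.39 to Lt (adjusted p = 0.00405) and by 3.27 ± 0.39 to Ht (adjusted p = 2.09e-04). Without con 2, neither gene was called to Lt. Without Lt 2, Hk1 was not called and the rise of Hk2 was 1.77.

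Of the phosphofructokinases, which catalyse the committed step, Pfkp, the platelet form, lay at 7.78 and 3.62 CPM in con, 13.7 and 23.1 in Lt, 15.5 to 30.8 in Mt and 28.3 and 26.7 in Ht. It rose by 1.70 ± 0.46 to Lt (adjusted p = 0.0382) and by 2.25 ± 0.46 to Ht (adjusted p = 0.00228), and the call to Lt was lost without con 2, without Lt 2 and with total counts (adjusted p = 0.0523). The call of Pfkp from con to Mt was also lost without con 2. Without con 1 the rises of Pfkp to Lt and Ht were 2.34 and 2.91. Pfkl, the liver form, lay at 67.4 and 60.4 CPM in con and 62.9 and 57.2 in Ht and was not called in the tissue. Per kilobase of gene length, Pfkl took 51.2% ± 0.643 (SD, n = 2) of the summed phosphofructokinase level in con and 48.4% ± 0.429 in Ht, while Pfkp went from 2.24% ± 1.03 to 11.0% ± 0.406.

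The PFKFB enzymes make fructose 2,6-bisphosphate, which activates phosphofructokinase. Pfkfb4 lay at 1.65 and 1.38 CPM in con, 4.70 and 11.3 in Lt, then 7.50 and 8.51 in Mt3, 6.57 and 16.2 in Mt2, then 11.4 and 13.1 in Mt1 and 16.2 and 18.6 in Ht. It rose by 2.41 ± 0.53 to Lt (adjusted p = 0.0164) and by 3.50 ± 0.53 to Ht (adjusted p = 5.38e-04), and the call to Lt was lost without con 1, con 2 or Lt 2 (1.63 without Lt 2). Pfkfb3 took another course, with 27.3 and 26.7 CPM in con, 38.6 and 43.8 in Lt and 18.6 and 20.8 in Ht. Lt lay above con and Ht below it, and only the step from Lt to Ht was called. That call was lost without Lt 2, without Ht 1 and with total counts (log2 fold change -0.20). Of the summed PFKFB level per kilobase, Pfkfb4 made up 0.898% ± 0.105 in con and 44.3% ± 1.11 in Ht (SD, n = 2), while Pfkfb1, a form known from liver and muscle, went from 80.2% ± 3.52 to 17.2% ± 0.130.

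Glucose 6-phosphate isomerase (Gpi1), aldolase A (Aldoa) and triose phosphate isomerase (Tpi1) were not called in the tissue. Gpi1 stayed between 140.2 and 192 CPM in all tissue libraries. Aldoa lay at 176 and 133 CPM in con and 263 and 237 in Ht, and Tpi1 at 614 and 536 in con and 366 and 331 in Ht, each without overlap between those groups. Their differences from con to Ht, 0.67 ± 0.25 for Aldoa (adjusted p = 0.0366) and -0.74 ± 0.25 for Tpi1 (adjusted p = 0.0273), were under the fold limit, and with total counts they were 1.86 and 0.45.

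The lower steps held both the second largest rise and a fall. Pkm (chr9:59656368-59679375, plus strand) encodes the pyruvate kinase forms M1 and M2 of muscle and growing cells, which gene counts do not separate. It lay at 34.6 and 23.7 CPM in con, 169 and 370.4 in Lt, then 247 and 326 in Mt3, 369 and 672 in Mt2, then 469 and 647 in Mt1 and 792 and 733 in Ht. The groups were well apart from con at every stage, with a rise of 3.21 ± 0.47 to Lt (adjusted p = 0.00281) and of 4.69 ± 0.50 to Ht (adjusted p = 1.352e-04), or 25.8-fold. Pkm was the only member still called from con to Lt whichever of the 4 libraries was left out, with a rise of 2.53 without Lt 2.

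Phosphoglycerate kinase (Pgk1), the first step that yields ATP, went the other way, with 601 and 499 CPM in con, 483 and 389 in Lt, 374 and 249 in Mt2 and 248 and 249 in Ht. It fell by 1.16 ± 0.27 from con to Ht (adjusted p = 0.00419), but with total counts its log2 fold change was 0.03, so that the direction of Pgk1 rests on the scaling. Phosphoglycerate mutase (Pgam1) kept to 173 to 249.5 CPM and enolase 1 (Eno1) to 504 to 644 CPM in all tissue libraries, and neither was called.

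Lactate handling held the largest rise of the 32 genes beside a fall of the enzyme that makes lactate. Slc16a3 (chr11:120948480-120960868, plus strand) encodes MCT4, the lactate exporter of strongly glycolytic cells. Its level was 1.37 and 0.431 CPM in con, 9.25 and 20.3 in Lt, then 10.2 and 18.3 in Mt3, 17.8 and 32.8 in Mt2, then 21.3 and 33.1 in Mt1 and 47.7 and 36.8 in Ht. No metastasis library came near con, and the rise was 4.05 ± 0.65 to Lt (adjusted p = 0.00418) and 5.54 ± 0.66 to Ht (adjusted p = 2.02e-04), or 46.4-fold. Without con 2 the call to Lt was lost (adjusted p = 0.0521). The few counts in con left the size loose: leaving out single libraries gave a rise of 3.36 (without Lt 2) to 5.08 (without con 1) to Lt, and to Ht 4.91 without con 2 and 6.58 without con 1.

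Ldha, which turns pyruvate into lactate, lay at 1089.6 and 1029 CPM in con, 1332 and 963 in Lt, 1124 and 613 in Mt2, then 1073 and 571 in Mt1 and 463 and 459 in Ht. In Mt2 and Mt1 the library with fewer hepatocyte markers was the lower. Ldha fell by 1.22 ± 0.40 from con to Ht (adjusted p = 0.0245), a call lost without any 1 of the 4 libraries (adjusted p 0.0628 to 0.103) and with total counts (log2 fold change -0.03). Pdk1, a kinase that shuts pyruvate dehydrogenase off, lay at 90.5 and 162 CPM in con, 73.1 and 62.5 in Lt, 33.3 to 119.5 in Mt and 42.1 and 38.2 in Ht. It fell by 1.67 ± 0.41 from con to Ht (adjusted p = 0.00599), a call lost without con 2 (-1.20, adjusted p = 0.0511) and with total counts (log2 fold change -0.49). From con to Mt it also fell, by 1.12 ± 0.31 (adjusted p = 0.0167) with overlapping groups, and this call was lost without con 2 or without Mt2 2 (highest adjusted p 0.233) and with total counts (-0.54). Within the family, measured per kilobase, Pdk2 made up 74.6% ± 5.01 of the summed level in con and 11.9% ± 0.237 in Ht, and Pdk3 0.419% ± 0.308 and 52.4% ± 3.17 (SD, n = 2).

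**Figure D2:**
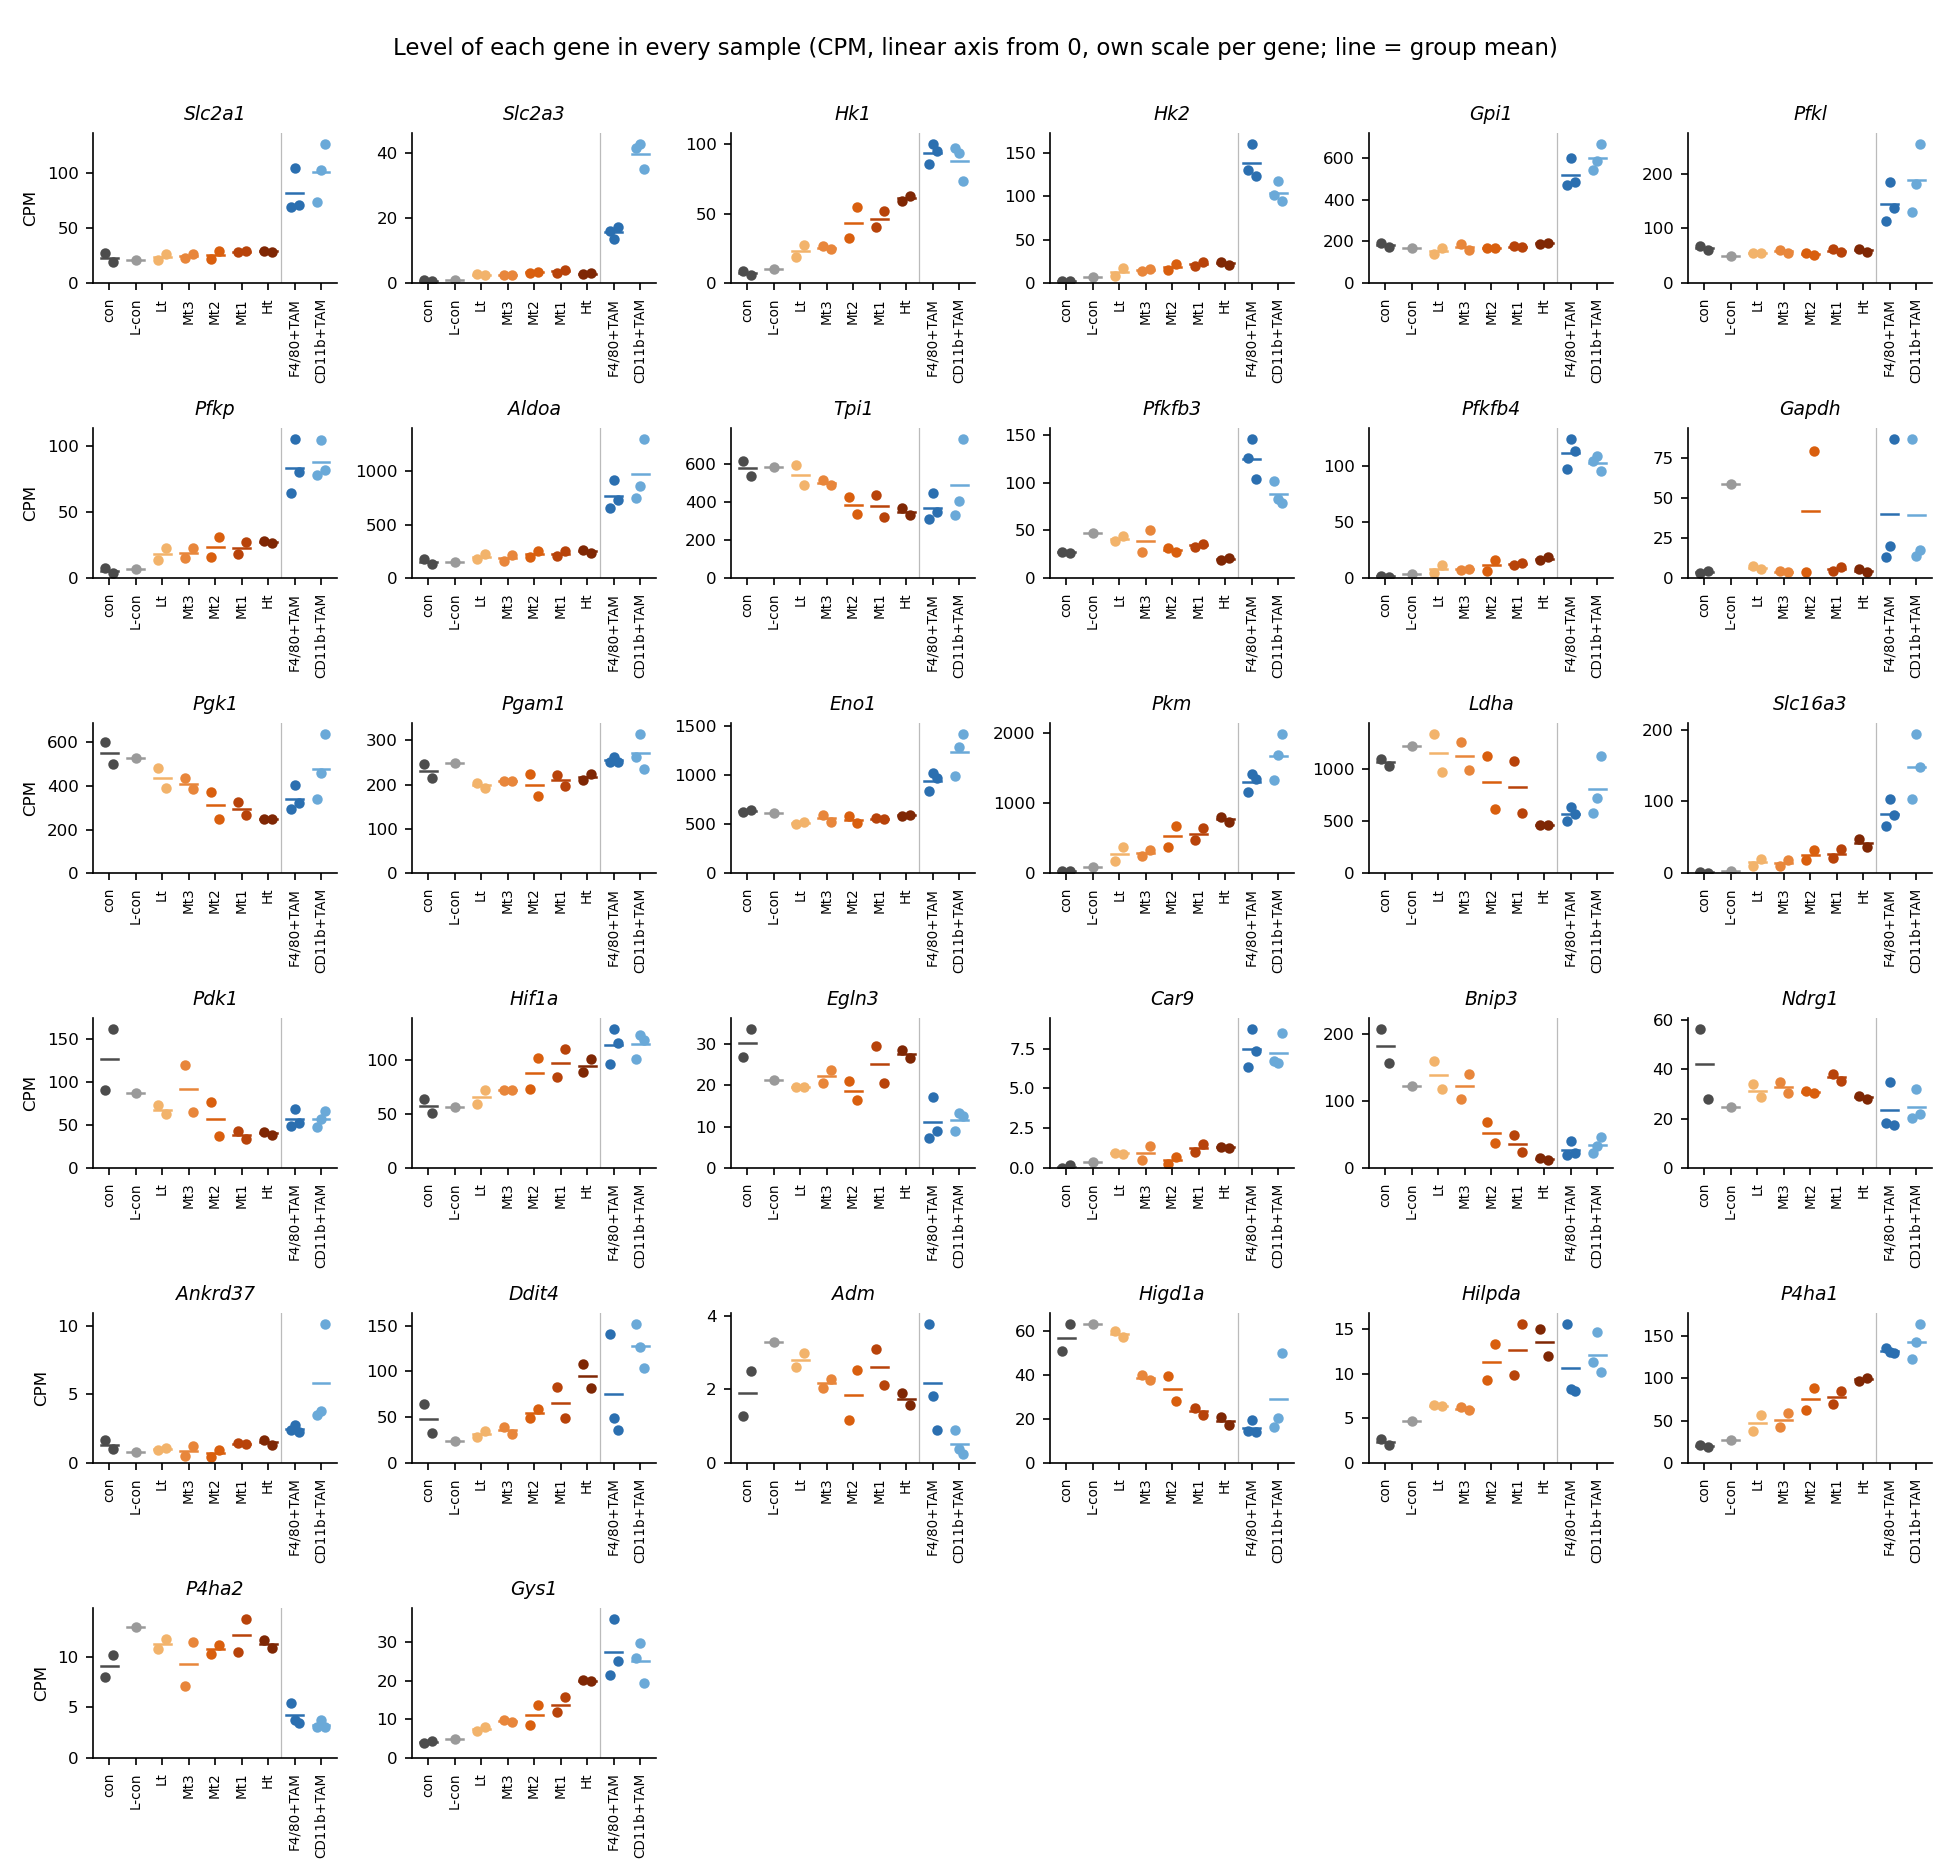
TMM-scaled CPM (y axis, linear from 0, own scale for each gene) of members in every sample (points) of the 7 tissue groups and the 2 sorted populations (x axis), with a line at each group mean. Pkm and Slc16a3 climb from con (23.7 to 34.6 and 0.431 to 1.37 CPM) to Ht (733 to 792 and 36.8 to 47.7), whereas Ldha and Bnip3 are lower in Ht than in con.

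Hif1a, the oxygen-controlled subunit of HIF, lay at 63.9 and 50.5 CPM in con, 59.3 and 72.0 in Lt, 71.7 to 110.3 in Mt and 88.4 and 101 in Ht. Ht and con did not overlap, yet Hif1a was not called in any comparison. HIF1A is controlled mainly at the level of protein, which RNA counts do not measure. Egln3, a prolyl hydroxylase that marks HIF1A and is itself a HIF target, ranged from 16.4 to 33.7 CPM over the tissue and was not called.

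Of the 8 hypoxia response genes, 2 rose from con to Ht, 2 fell and 4 were not called, shares close to the 25.8% and 24.1% of all genes. Hilpda, a lipid droplet protein that inhibits lipolysis, lay at 2.65 and 1.98 CPM in con, 6.49 and 6.34 in Lt, 5.89 to 15.5 in Mt and 15 and 12 in Ht. It rose by 1.47 ± 0.31 to Lt (adjusted p = 0.0141) and by 2.52 ± 0.31 to Ht (adjusted p = 2.30e-04), and was not called to Lt without con 2 or Lt 2. Car9, a carbonic anhydrase on the cell surface that is widely used as a hypoxia marker, had 0 and 2 counts in con and rested at 0.97 and 0.867 CPM in Lt, 0.260 to 1.5 in Mt and 1.33 and 1.24 in Ht. By summed counts it was 14.6 times as high in Ht as in con, with a 95% counting interval of 3.95 to 123, and it was called from con to Mt (not without con 1, adjusted p = 0.115) and from con to Ht. Its fitted log2 fold change from con to Ht, 3.76, was 2.85 without con 1, and without con 2, which held both counts, con is at 0 and no fold is given.

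Bnip3 (chr7:138890836-138909519, minus strand), a mitophagy receptor and textbook HIF target, had the largest fall. It lay at 207 and 156 CPM in con, 159 and 117 in Lt, then 103 and 139 in Mt3, 68.3 and 36.4 in Mt2, then 48.6 and 24.0 in Mt1 and 14.5 and 11.5 in Ht. Both Ht samples lay below every other tissue library. Bnip3 fell by 1.58 ± 0.30 from con to Mt (adjusted p = 0.00315) and by 3.82 ± 0.44 from con to Ht (adjusted p = 1.74e-04), a 14.1-fold difference. It was the only member still called lower from con to Ht with total counts, while its call from con to Mt was then lost (-0.99). Higd1a, a small mitochondrial protein induced by hypoxia, lay at 50.7 and 63.0 CPM in con, 60.1 and 57.2 in Lt, 21.8 to 39.8 in Mt and 20.9 and 17.1 in Ht. It fell by 1.59 ± 0.20 from con to Ht (adjusted p = 2.43e-04) and lost the call with total counts (log2 fold change -0.41).

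Of the others, Ddit4, an inhibitor of mTORC1 induced by stress, lay at 64.1 and 32.4 CPM in con, 28.0 and 35.4 in Lt and 108 and 82.0 in Ht, and its difference from con to Ht stayed just under the fold limit (0.96 ± 0.35, adjusted p = 0.0387). Ndrg1, a stress-induced gene of growth arrest, stood at 56.4 and 27.8 CPM in con and 29.1 and 28.1 in Ht. Ankrd37 (0.456 to 1.66 CPM) and the vasodilator peptide gene Adm (1.17 to 3.28 CPM) were low in all tissue libraries, and none of these 3 was called there.

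P4ha1 and P4ha2 encode the catalytic subunits of collagen prolyl 4-hydroxylase. P4ha1 lay at 21.5 and 19.1 CPM in con, 37.2 and 56.3 in Lt, 42.6 to 88.2 in Mt and 97.5 and 100.1 in Ht, and P4ha2 at 8.06 and 10.2 in con and 11.7 and 10.9 in Ht. P4ha1 rose by 1.21 ± 0.26 to Lt (adjusted p = 0.0152; lost without con 1, con 2 or Lt 2) and by 2.27 ± 0.27 to Ht (adjusted p = 2.01e-04), while P4ha2 was not called. Gys1, the glycogen synthase of muscle and most other tissues, lay at 3.84 and 4.48 CPM in con, 7.09 and 7.94 in Lt, 8.46 to 15.8 in Mt and 20.1 and 19.8 in Ht. Its rise was 1.44 ± 0.24 to Mt (adjusted p = 0.00164) and 2.24 ± 0.27 to Ht (adjusted p = 2.10e-04). Leaving out con 2 or Lt 2 lost most of the calls from con to Lt. From con to Ht, Ldha was lost whichever library was left out and Pdk1 without con 2, while the other calls were kept.

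Between metastases of low and high content, 7 of the 32 genes rose from Lt to Ht and 4 fell, with 11.7% of all genes called higher and 20.2% lower. Without overlap 20 were higher and 8 lower (40.3% and 40.4% of all genes). Hk1 (1.39 ± 0.30, adjusted p = 0.00662), Pkm (1.48 ± 0.43, 0.0225), Slc16a3 (1.49 ± 0.50, 0.0361), Gys1 (1.39 ± 0.26, 0.00416), Hilpda (1.06 ± 0.28, 0.0161), P4ha1 (1.06 ± 0.26, 0.0108) and Ddit4 (1.56 ± 0.36, 0.00883) rose. Bnip3 (-3.42 ± 0.43, adjusted p = 0.00302), Higd1a (-1.64 ± 0.20, 0.00302), Ldha (-1.34 ± 0.40, 0.0251) and Pfkfb3 (-1.09 ± 0.25, 0.00869) fell. Only Bnip3, Higd1a and Gys1 were called whichever library was left out, and the calls numbered 4 without Lt 1 and 5 without Ht 1. Without Lt 2 the rises of Pkm and Slc16a3 were 2.16 and 2.18. With total counts 16 genes rose and 1 fell, Bnip3 (36.2% and 12.1% of all genes with that scaling), while Pfkfb3 (-0.20), Ldha (-0.42) and Higd1a (-0.75) were not called.

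From Mt to Ht, which shares the Ht samples with the comparison from Lt, 0 genes rose and 1 fell in edgeR's test, against 1.5% and 13.4% of all genes. Without overlap 6 were higher and 5 lower (18.7% and 22.8%). DESeq2 gave the same counts of calls, and 10 of the 32 had an unadjusted p under 0.05 in edgeR. Bnip3 fell by 2.24 ± 0.37 (adjusted p = 0.00876), a call lost without Ht 1 or Ht 2 (highest adjusted p 0.139). Without Mt2 2, 4 genes were called, and with total counts 8 rose beside 1 that fell (15.1% and 10.3% of all genes with that scaling). All 13 hepatocyte markers fell in the same comparison.

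For 3 members the level was set beside that of the gene for the matching liver form, and the share of each pair was taken per kilobase of gene length. Pkm made up 14.7% and 4.90% of Pkm plus Pklr (liver pyruvate kinase) in con and 19.7% in the L-con library, then 44.5% and 67.9% in Lt, then 53.4% and 67.7% in Mt3, 73.1% and 95.7% in Mt2, then 87.3% and 95.8% in Mt1 and 99.3% and 98.9% in Ht. Gys1 rose from 2.00% and 1.64% of Gys1 plus Gys2 in con to 81.4% and 68.9% in Ht, with 6.75% and 28.4% in Mt2. In both pairs the shift came with a change on both sides, since the member was called higher and its partner lower from con to Ht.

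Slc2a1 made up 17.8% and 6.07% of Slc2a1 plus Slc2a2 (the liver transporter GLUT2) in con and 87.0% and 77.3% in Ht. In this pair the member itself was not called, and only the partner fell. From con to Ht the log2 fold change was -5.57 ± 0.82 for Pklr, -5.11 ± 0.75 for Gys2 and -5.04 ± 1.03 for Slc2a2, beside a median of -5.12 for the 13 hepatocyte markers. From con to Lt 0 of these 3 liver forms was called in edgeR's test, 0 having an unadjusted p under 0.05, and from con to Mt 2 of 3 fell (1 of 3 with total counts).

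**Figure D3:**
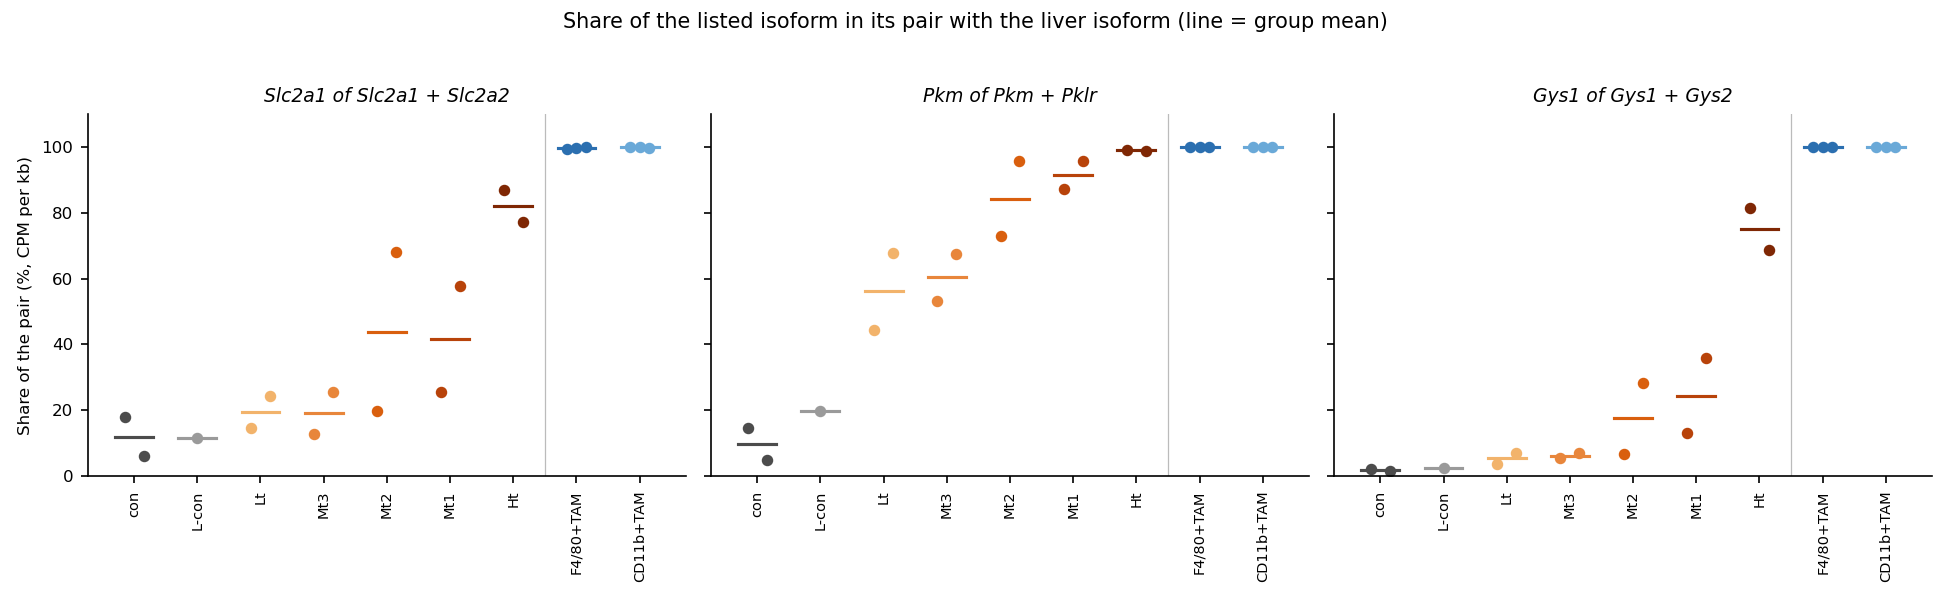
Share (y axis, percent of the summed level per kilobase) of the member in 3 pairs of a member and its liver form, one point for each sample of the 9 groups (x axis). Every pair is near 100% in both sorted populations, and Pkm reaches 44.5% and 67.9% already in Lt, when Gys1 is still at 3.75% and 6.95%.

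The next question was how the sorted cells compared with the metastases they came from. Tissue and sorted cells were deposited in separate tables, so batch and kind of sample cannot be told apart. In the sorted cells hepatocyte markers summed to 252 to 526 CPM and macrophage markers to 13572 to 20562 CPM, against 1892 and 2075 in Mt2. Fibroblast and stellate cell markers summed to 173 to 549 CPM in the sorted cells, against 3529 and 5718 in Mt2. From Mt2 to F4/80+TAM 15 of the 32 genes rose and 2 fell, with 17.2% of all genes called higher and 25.2% lower. From Mt2 to CD11b+TAM 17 rose and 2 fell, against 17.6% and 26.3%. Both comparisons share the Mt2 libraries. Without overlap 18 genes were higher and 2 lower in F4/80+TAM (33.5% and 38.1% of all genes), and 19 higher and 3 lower in CD11b+TAM (29.4% and 35.6%). The median log2 fold change of the 32 genes was 0.80 and 1.09, beside -0.12 and -0.08 for all genes, and in each population 6 of the 7 genes from hexokinase to triose phosphate isomerase rose.

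The members Pfkfb3, Pfkfb4 and Hk2 rose in both populations. Pfkfb4 lay at 6.57 and 16.2 CPM in Mt2, 97.1, 124 and 113 in F4/80+TAM and 104, 109 and 95.1 in CD11b+TAM, a rise of 3.28 ± 0.37 (adjusted p = 4.76e-06) and 3.16 ± 0.37 (5.41e-06). Hk2 lay at 15.1 and 22.4 CPM in Mt2, 129.6, 159.9 and 123 in F4/80+TAM and 101, 117 and 93.9 in CD11b+TAM, a rise of 2.87 ± 0.30 (1.996e-06) and 2.47 ± 0.29 (5.55e-06). Pfkfb3 lay at 31 and 27.3 CPM in Mt2, 125, 146 and 103 in F4/80+TAM and 102, 82.8 and 79.0 in CD11b+TAM. It rose by 2.10 ± 0.24 and 1.59 ± 0.24, although it was lower in Ht than in Lt. The sorted libraries lay above both Mt2 libraries in each case. Without Mt2 2 the rises of Pfkfb4 were 4.12 and 4.0.

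Several genes that were not called in the tissue with TMM were higher in both populations. Slc2a1 lay at 21.5 and 29.2 CPM in Mt2, 69.0, 105 and 71.1 in F4/80+TAM and 73.5, 103 and 126 in CD11b+TAM and rose by 1.68 ± 0.27 and 1.99 ± 0.27. Gpi1 lay at 171 and 168 CPM in Mt2, at 467 to 599 in F4/80+TAM and at 540.4 to 666 in CD11b+TAM, and rose by 1.61 ± 0.20 and 1.82 ± 0.20. Aldoa (1.78 ± 0.29 and 2.12 ± 0.29) and Pfkl (1.45 ± 0.26 and 1.83 ± 0.26) rose as well. Eno1 (1.18 ± 0.22, adjusted p = 3.62e-04) was called in CD11b+TAM, where it lay at 994 to 1423 CPM against 842 to 1024 in F4/80+TAM.

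Pkm rose again, from 369 and 672 CPM in Mt2 to 1153, 1406 and 1332 in F4/80+TAM and 1323, 1679 and 1981 in CD11b+TAM (1.32 ± 0.36 and 1.67 ± 0.37). Slc16a3 rose from 17.8 and 32.8 CPM to 65.4, 103 and 80.5 and to 104, 194 and 148 (1.71 ± 0.43 and 2.55 ± 0.45). Hk1, Pfkp and Gys1 rose by 1.02 to 1.91 in each population. Car9 lay at 0.260 and 0.719 CPM in Mt2, 6.36 to 8.74 in F4/80+TAM and 6.60 to 8.47 in CD11b+TAM, a rise of 3.85 ± 0.52 and 3.80 ± 0.52. Ankrd37, an ankyrin repeat gene known as a HIF target, rose by 1.74 ± 0.54 and 2.97 ± 0.56, the latter with 10.2 CPM in CD11b+TAM 3 beside 3.51 and 3.81. Without Mt2 2 the rises were 2.42 and 2.49 for Pfkp, 4.85 and 4.80 for Car9 and 2.46 and 3.68 for Ankrd37, and without CD11b+TAM 3 that of Ankrd37 in CD11b+TAM was 2.31. CD11b+TAM 3 also held the highest neutrophil marker sum, 3886 CPM against 1393 and 1461.

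Genes lower in the sorted cells were few. P4ha2 lay at 10.3 and 11.2 CPM in Mt2, 3.45 to 5.45 in F4/80+TAM and 3.07 to 3.76 in CD11b+TAM and fell by 1.35 ± 0.25 and 1.70 ± 0.26. Higd1a fell in F4/80+TAM (-1.07 ± 0.35, adjusted p = 0.0182), not called without Mt2 1, F4/80+TAM 1 or F4/80+TAM 3 (highest adjusted p 0.138). Adm fell in CD11b+TAM (-1.87 ± 0.61, adjusted p = 0.018) from 1.17 and 2.54 CPM to 0.901, 0.381 and 0.232, and Ddit4 rose there (1.23 ± 0.48, adjusted p = 0.0403) to 152, 127 and 103 CPM. Both calls were lost without Mt2 2 and without CD11b+TAM 2, that of Adm also without CD11b+TAM 3 and that of Ddit4 without Mt2 1 or CD11b+TAM 1 (highest adjusted p 0.232 and 0.169). The change of Adm was -1.15 without Mt2 2 and -2.53 without CD11b+TAM 1. With total counts, Ddit4 (adjusted p = 0.0534) and Hk1 (log2 fold change 0.93) were not called in CD11b+TAM. Leaving out Mt2 1 lowered the calls to 12 in F4/80+TAM, where Hk1, Pkm, Ankrd37 and Gys1 were then not called, and to 16 in CD11b+TAM, where Hk1 (also lost without CD11b+TAM 1 or 2) and Gys1 were not. Ldha, Pgk1, Bnip3, Hif1a and P4ha1 were called in neither population. P4ha1 was higher than Mt2 without overlap in both, but under the fold limit (0.81 ± 0.22 in F4/80+TAM and 0.93 ± 0.22 in CD11b+TAM).

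**Figure D4:**
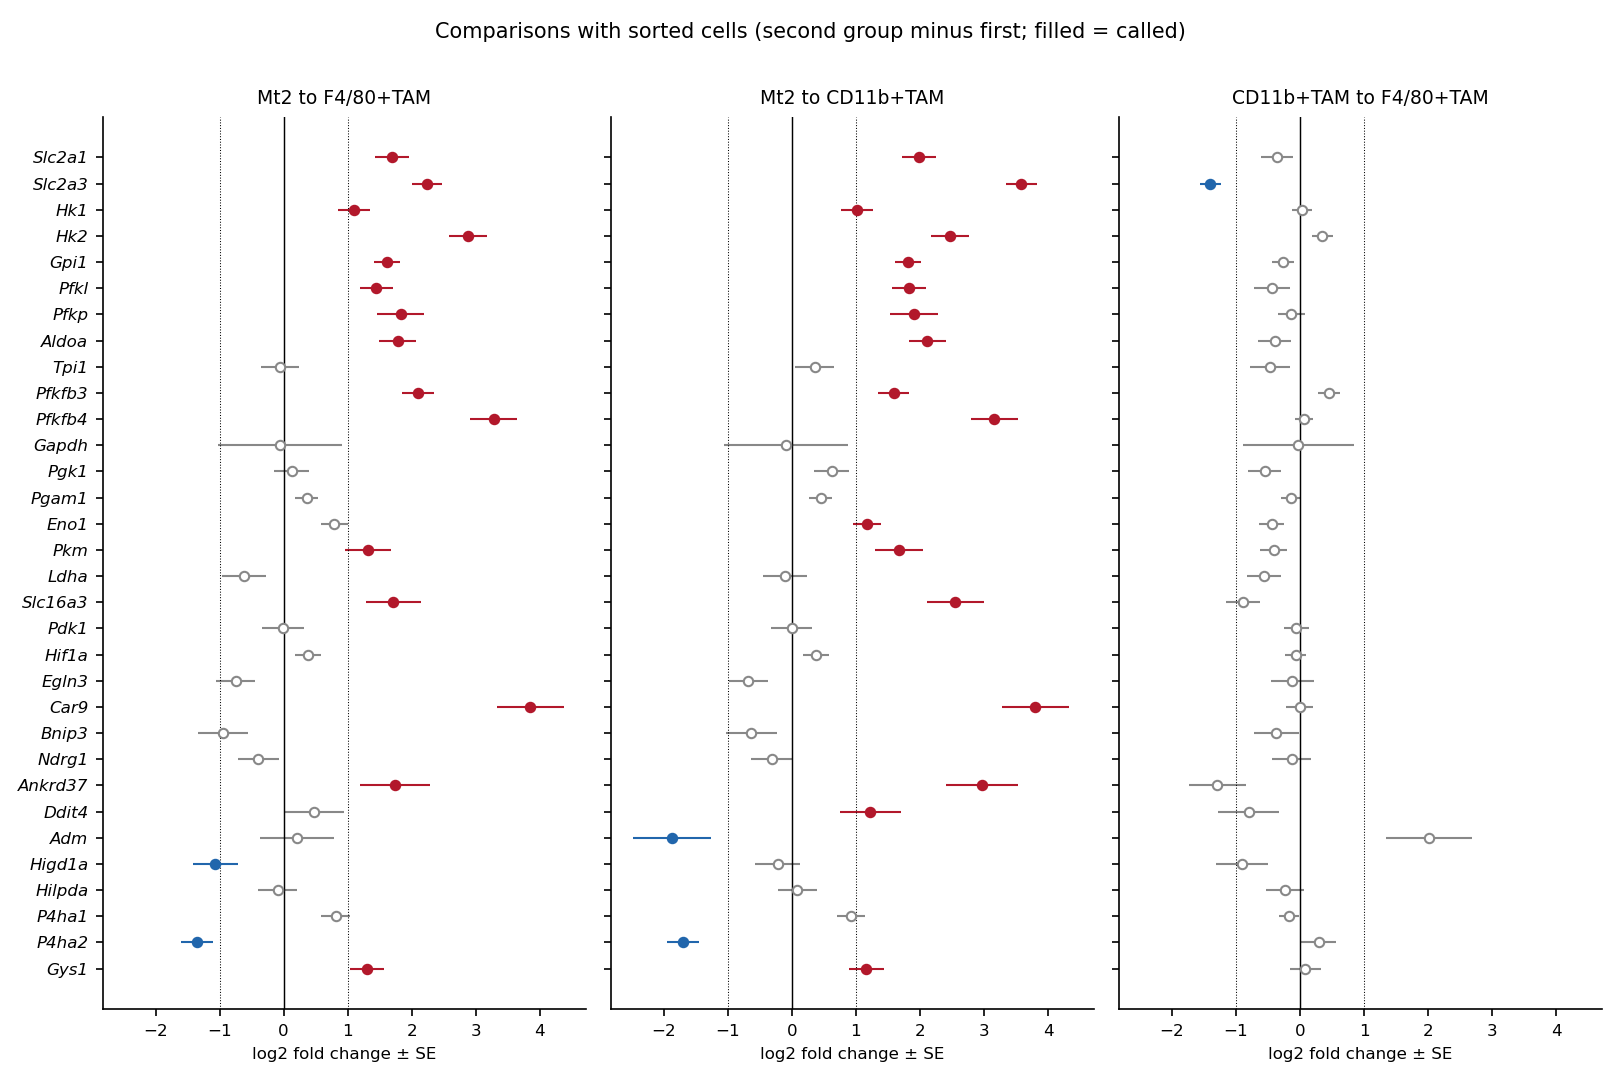
Log2 fold change (x axis, ± SE) of each of the 32 genes (y axis) from Mt2 to F4/80+TAM, from Mt2 to CD11b+TAM and from CD11b+TAM to F4/80+TAM; filled points are called (red higher, blue lower), open points are not, and dotted lines mark a log2 fold change of 1 in either direction. Car9, Pfkfb4 and Hk2 lie farthest to the right in F4/80+TAM (3.85, 3.28 and 2.87), and only Slc2a3 is filled between the populations.

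Between the populations themselves 0 of the 32 genes rose and 1 fell from CD11b+TAM to F4/80+TAM, with 0.00701% of all 14263 genes called higher and 0.0701% lower (edgeR). Without overlap 2 were higher and 3 lower (15.1% and 8.71% of all genes). DESeq2 also called 0 higher and 1 lower, and 5 of the 32 had an unadjusted p under 0.05 in edgeR. Slc2a3 lay at 41.5, 42.8 and 35.2 CPM in CD11b+TAM and 16.1, 13.5 and 17.4 in F4/80+TAM, without overlap, beside 3.25 and 3.38 in Mt2. It fell by 1.40 ± 0.16 (adjusted p = 0.0400), or 2.63-fold, and was higher than Mt2 in both populations (2.24 ± 0.23 and 3.58 ± 0.24 for F4/80+TAM and CD11b+TAM). The call between the populations held only when no library or CD11b+TAM 3 was left out (adjusted p 0.00509 to 0.194), and it was lost with total counts (-1.32, adjusted p = 0.0777). The 10 neutrophil markers summed to 180 to 513 CPM in F4/80+TAM and 1393 to 3886 in CD11b+TAM. Of them 2 were called lower in F4/80+TAM. Within CD11b+TAM, however, library 3 had the highest neutrophil marker sum (3886 CPM) and the lowest Slc2a3 level (35.2 CPM). What part neutrophils had in the result was not tested.

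Gapdh, the glyceraldehyde 3-phosphate dehydrogenase that is often used as a reference gene, could not be read as a level here. It held 35 to 406 counts in 16 of the 20 libraries and 679 in L-con, 1874 in Mt2 2, 1761 in F4/80+TAM 3 and 1823 in CD11b+TAM 1. Transcripts of 77 other genes share at least 30% and up to 100% of their 31-base words with Gapdh, and these genes took 23.8% to 96.7% of the counts of Gapdh and themselves together. How reads that match several genes were counted is not given in the sources used here, so Gapdh counts are uncertain. Gapdh was not called in any comparison, but without Mt2 2 it was called higher in F4/80+TAM (3.40) and CD11b+TAM (3.36). Among the other members the share taken by such genes was highest for Eno1, at up to 7.36%.

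**Figure D5:**
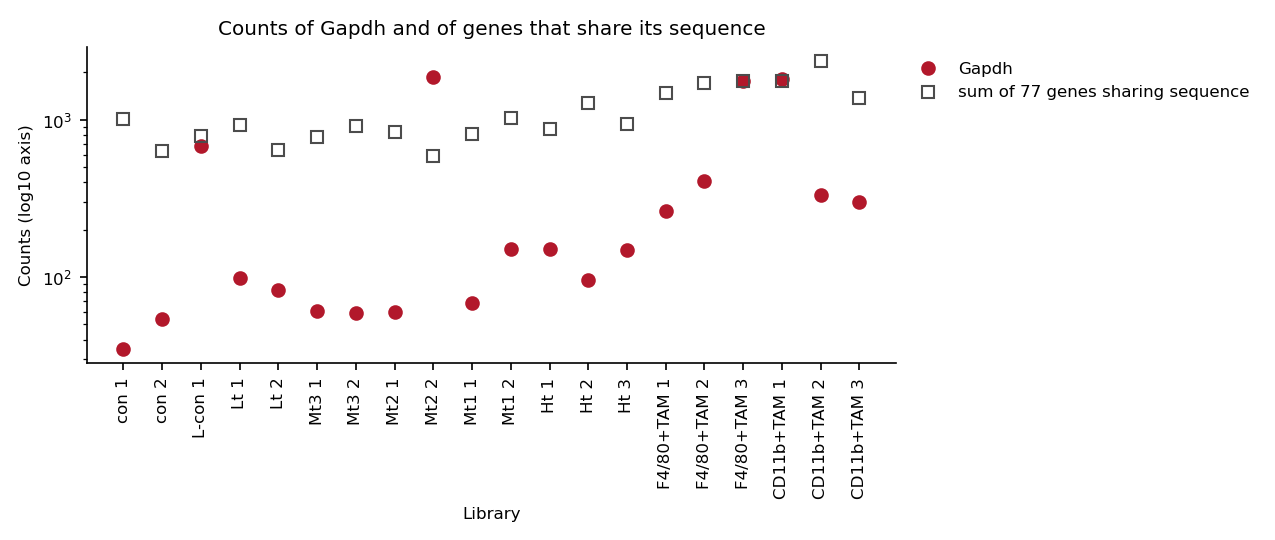
Counts (y axis, log10 scale) of Gapdh and of the 77 genes that share sequence with it, summed, for each of the 20 libraries (x axis). The 77 genes stay between 585 and 2350 counts while Gapdh runs from 35 to 1874, and Gapdh exceeds their sum in Mt2 2, F4/80+TAM 3 and CD11b+TAM 1.

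Other genes of the same pathways put the members in context. From con to Ht the counts below stand beside 25.8% of all genes called higher and 24.1% lower. Of 19 further glycolysis genes 4 rose and 6 fell, shares near those of all genes, with Pdk3 (4.82 ± 0.46) among those that rose and Gpd1 (glycerol 3-phosphate dehydrogenase, -4.94 ± 0.72) and Pdk2 (-4.84 ± 0.63) among those that fell. The liver forms Slc2a2, Pklr and Gys2, which all fell from con to Ht, were not counted among these 19 genes. Eno2, the neuronal enolase, had 0 counts in both con libraries and 101 to 165 in those of Ht, and no fold is given. Of 8 genes of the HIF pathway 1 rose and 2 fell: Epas1, which encodes HIF2A and is strong in endothelium, fell by 3.81 ± 0.60 and Egln2 by 1.23 ± 0.27, and Arnt2, with 0 counts in con, was called higher. Of 24 further hypoxia targets 6 rose, among them the collagen-modifying Plod2 (5.62 ± 0.58) and Lox (4.36 ± 0.72), and 11 fell, among them Ppp1r3c (-6.75 ± 1.24) and Rora (-4.50 ± 0.71). From Mt2 to either sorted population 0 of these 24 rose and 13 fell in edgeR's test, beside 17.2% and 25.2% of all genes for F4/80+TAM and 17.6% and 26.3% for CD11b+TAM (19 and 18 had an unadjusted p under 0.05). Of 7 pentose phosphate genes 3 rose from con to Ht, G6pdx (1.98 ± 0.23), Rpia (1.95 ± 0.33) and Pgd (1.38 ± 0.19), and 4 rose from Mt2 to each sorted population, with G6pdx at 2.47 ± 0.21 in F4/80+TAM and 2.43 ± 0.21 in CD11b+TAM. With total counts the split from con to Ht was 8 higher and 5 lower for the further glycolysis genes, 4 and 1 for the HIF pathway, 9 and 6 for the further hypoxia targets and 5 and 0 for the pentose phosphate genes, beside 51.3% and 13.1% of all genes with that scaling.

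L-con, a single library without a test, lay above both con libraries for 17 of the 32 genes, below both for 9 and between them for 6, where 38.3% of all genes lay above both and 29.7% below both. Pkm stood at 81.8 CPM there, Hk2 at 7.34, Pfkfb4 at 3.37 and Slc16a3 at 3.28, each above con and below both Lt libraries. Hepatocyte markers summed to 178114 CPM in L-con, close below con, and proliferation markers to 131 CPM against 14.7 to 25.2, while fibroblast and stellate cell markers summed to 721 CPM. Macrophage markers summed to 1692 CPM against 802 to 1126 in con. What part these cells had in the levels of the 32 genes was not tested.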

How the data were processed

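Bulk RNA-Sequencing was done on 14 tissue libraries and 6 libraries of sorted cells. The authors deposited raw read counts per gene in 2 tables of 54532 genes, without normalization or pooling. The submitters' processing notes name CASAVA, HISAT2 2.0.5, featureCounts 1.5.0-p3 and GRCm38/mm10, and strand is not given in the sources used here. The table of sorted cells was joined to gene names by gene identifier, and 0 columns were left unmapped.

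Counts were tested in R 4.3.3 with edgeR 4.0.16 (TMM, filterByExpr, quasi-likelihood F test, Benjamini-Hochberg over all genes), in a tissue fit of 13 samples in 7 groups and 17187 genes, a sorted fit of 6 libraries and 14263 genes, and a joint fit of 19 samples and 18407 genes for Mt2 against sorted cells. Ht 1 and Ht 3 were summed. The SE of a log2 fold change was taken as its size divided by the square root of the F value of its test. CPM values are TMM-scaled, and levels between genes were compared only per kilobase of deposited gene length. At these depths 3 counts correspond to 0.146 to 0.187 CPM, and intervals cover counting error only. Scripts were tested on simulated counts.

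The members and lists were chosen with earlier results of these data known. All members may be named. Liver forms of 3 members are always named, while those of some other members are not reported here. Of each other list at most 4 called genes are named, those with the largest log2 fold change whose groups do not overlap, in either direction. Promoters shown are those of the 6 called genes with the motif and the largest rise from con to Ht. Alternatives were DESeq2 1.42.0, its size factors or total counts, a minimum of 10 counts or no filter, no fold threshold, the replicate number as a block, only the groups compared, Ht as 3 libraries or without Ht 3, Mt as 1 group, the joint fit, and leaving out each library.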

Additional observations from a re-analysis of the deposited data

Results flagged for a closer look

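Tumor-free liver away from the metastases (L-con) entered no comparison, being 1 library. Members whose level there was at least 2 times that of the higher con library were picked out. Hk2 stood at 2.77 times, Pfkfb4 at 2.04, Pkm at 2.36 and Slc16a3 at 2.39 times that level. Car9 stood at 2.0 times, but on 4 counts against 2, with a 95% counting interval of the ratio of 0.287 to 22.1. Gapdh stood at 12.6 times, but 77 other genes share sequence with it and how shared reads were counted is not given in the sources used here. The differences have no replicate check.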

How the results depend on the processing

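Of the 87 calls of a member in a comparison, DESeq2 kept 86, its size factors in edgeR 86, no filter 86, only the groups compared 85, and the replicate block 87. A minimum of 10 counts left 69 of these calls with a test, of which it kept 66; the other 18, of Slc16a3, Slc2a3, Car9, Ankrd37 and Adm, had too few counts for it. Total counts kept 74, lost 12 and turned 1, Pgk1 from con to Ht (log2 fold change 0.027); the cause was not tested beyond the shift of all genes. Of the 169 member results that were not called, 29 were called with total counts, 40 changed sign and 4 were called with the other sign (Pfkl, Pgam1, Eno1 and Egln3 from con to Ht). With total counts the calls were 0 lower from con to Mt, 21 higher and 1 lower from con to Ht, 17 in all (16 higher, 1 lower) from Lt to Ht, 9 (8 higher) from Mt to Ht and 0 between the sorted populations. Without a fold threshold 5 members were lower from con to Mt, and 5 changed (2 higher, 3 lower) from Mt to Ht. With Mt as 1 group, 1 was lower from con to Mt. From Mt to Ht, no filter gave 3 calls (2 higher) and Ht as 3 libraries gave 3 (1 higher, 2 lower). A minimum of 10 counts gave 0 calls between the sorted populations and 1 lower from Mt2 to CD11b+TAM, and the fit of only the groups compared also gave 1 lower there. The cause was not tested.

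For samples that share a replicate number between groups, deviations from the group mean had correlations of -0.379 to 0.16. With 2 samples in a group the deviations mirror each other, so these values cannot show whether the numbers pair the samples. The replicate block gave 2 calls (1 higher) from Mt to Ht, 10 from con to Lt and 12 from Lt to Ht, and lost none. With the numbers crossed, a choice made after seeing the data, the block gave 9, 16 and 12 calls from con to Lt, con to Ht and Lt to Ht and 2 (1 higher) from Mt to Ht.

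Leaving out each library in turn gave 1 to 9 calls (all higher) from con to Lt, 11 to 14 (10 to 12 higher, 1 to 3 lower) from con to Mt, 15 to 16 (11 to 12 higher, 4 lower) from con to Ht, 4 to 11 (1 to 8 higher, 2 to 3 lower) from Lt to Ht and 0 to 4 (0 to 2 higher, 0 to 2 lower) from Mt to Ht. It gave 0 to 1 call, lower, between the sorted populations, 12 to 20 (11 to 17 higher, 1 to 4 lower) from Mt2 to F4/80+TAM and 16 to 19 (14 to 18 higher, 1 to 2 lower) from Mt2 to CD11b+TAM. Where an arm kept 1 library, it was assumed to vary like the other groups. With 2 libraries in most groups, a member that was not called is not shown to be unchanged, and for Car9, Slc2a3 and Slc16a3 the few counts in con limit the fold.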
